A study of Homo sapiens with 11 samples.

Results

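The expression that individual cultures of A375 cells had in common before and after drug withdrawal was examined in 10 RNA-seq libraries out of the 11 of the series. A375 is an established human melanoma line with an activating BRAF mutation, and its genotype is labelled WT in every library. Persister cells are the A375 cells kept in 2 nM trametinib, an inhibitor of the MEK kinases, for 8 weeks, and withdrawn cells were taken after 4 weeks without the drug. The title of each of the 5 withdrawn libraries repeats the number of a persister library, so cultures 1 to 5 have 1 library in each state. A 1-library sample of untreated parental A375 cells belongs to no culture and was left out of every fit. Its level, scaled to library size without a TMM factor, is given beside some of the genes described. Separate selection of the 5 persister cultures is not stated in the labels; p-values therefore cover only the spread among these samples, and that spread may be technical. Of 58721 genes in the count table, 16212 had at least 10 counts in all 10 libraries and are described here. For each gene the log2 CPM (counts scaled to library size, with a TMM factor between libraries) of a library was taken as a deviation from the mean of its own 5-library state.

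Cells that survive a targeted drug as a slowly cycling, tolerant population are called persisters, and much of their altered expression is known to reverse when the drug is removed. In BRAF-mutant melanoma such cells lose the transcripts that the MAPK pathway drives and can move towards neural crest-like, mesenchymal or pigmented states. Separate cultures can differ by the clones that survive, by chromosome copy number and by heritable chromatin states such as promoter methylation or the choice of clustered protocadherin promoters, and RNA levels alone do not separate these.

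Total counts ran from 56513920 to 82984566 per library and followed the culture number in part, since culture 2 had the lowest total in both states. Mitochondrially encoded genes took 4.51% to 9.28% of the counts in persister libraries, highest in cultures 5 and 1, and 3.15% to 3.70% in withdrawn libraries. The part of depth and mitochondrial share in the results below was not tested. Of the melanoma markers, SOX10, MITF and S100B were present in all 10 libraries. Without a TMM factor, SOX10 stood at 27.5 to 85.8 CPM in persister and 801 to 854 CPM in withdrawn libraries. S100B stood at 6.47 to 24.3 CPM in persister and 89.7 to 100 CPM in withdrawn libraries. MLANA went the opposite way, at 10.4 to 23.3 CPM in persister and 0.450 to 0.829 CPM in withdrawn libraries. PMEL was low in both states and TYR was near 0. Summed markers of other cell types, in CPM without further scaling, were 54.7 to 104.5 in persister and 56.1 to 61.3 in withdrawn libraries for 15 keratinocyte genes, and 2.63 to 4.56 and 8.13 to 9.31 for 12 leukocyte genes. They were 5.75 to 22.9 and 17.9 to 28.8 for 10 endothelial genes, and 110 to 427 and 48.9 to 66.5 for 13 fibroblast genes. KRT1, a keratinocyte marker, was at 0 in all 10 libraries.

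Promoters are shown for a pair of genes picked for their values. LRFN5 passed the test of the culture effect, as did MYOCD, whose promoter is not shown. LRFN5 lacked 10 counts in some libraries, so it enters none of the results over the 16212 genes. POSTN had the largest deviation held in common by a persister culture and its withdrawn culture, but did not pass that test. The sequences are the 250 bases before the RefSeq gene start (GRCh38.p14), read on the strand of the gene at chr14:41606626-41606875 (plus strand) for LRFN5 and chr13:37598769-37599018 (minus strand) for POSTN, with every CG in capitals.
LRFN5: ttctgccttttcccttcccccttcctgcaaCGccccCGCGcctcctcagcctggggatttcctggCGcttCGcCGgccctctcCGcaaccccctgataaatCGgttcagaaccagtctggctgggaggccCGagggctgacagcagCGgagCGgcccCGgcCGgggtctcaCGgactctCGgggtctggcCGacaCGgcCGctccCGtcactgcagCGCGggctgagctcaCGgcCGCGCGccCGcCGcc
POSTN: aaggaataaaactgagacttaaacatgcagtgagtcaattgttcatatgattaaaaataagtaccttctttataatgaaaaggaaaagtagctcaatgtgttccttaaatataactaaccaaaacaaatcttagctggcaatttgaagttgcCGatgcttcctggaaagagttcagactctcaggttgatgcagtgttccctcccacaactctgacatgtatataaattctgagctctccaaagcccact
The dinucleotide CG, which reads the same on both strands and is the usual site of DNA methylation, occurs 27 times before LRFN5 and 1 time before POSTN. Of 35116 RefSeq promoters of this length, 17.7% hold at least 27 and 14.7% hold 1 or none, with a median of 11. Methylation was not analysed here.

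Cultures differed far more from each other under trametinib than after withdrawal. The median SD of a gene over the 5 cultures was 0.298 log2 CPM in persister libraries and 0.102 in withdrawn libraries, with a median ratio of 2.70, and it was larger in the persister state for 90.9% of genes. Counting noise alone would give a median SD of 0.0428 and 0.0415. An SD of at least 0.5 was reached by 3713 genes in persister and 561 in withdrawn libraries, and an SD of at least 1 by 638 and 39. The root mean square distance between a pair of cultures ran from 0.450 to 0.894 log2 units among persisters and from 0.266 to 0.363 among withdrawn cultures, so the ranges did not overlap.

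**Figure D1:**
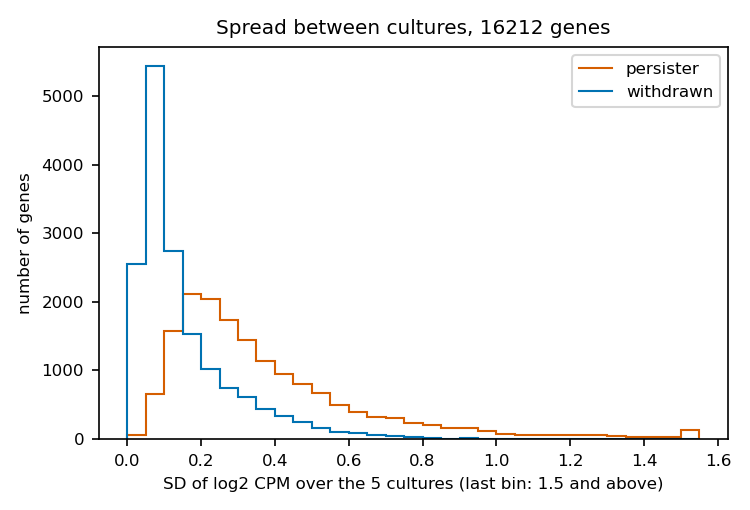
Number of genes (vertical axis) by the SD of log2 CPM over the 5 cultures (horizontal axis) in persister (orange) and withdrawn (blue) libraries, for 16212 genes. The withdrawn distribution peaks lower, with medians of 0.102 against 0.298.

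Withdrawn cultures nevertheless resembled their own persister culture more than the others. Across the 16212 genes, Pearson's r between the deviations of same-numbered libraries was 0.048, 0.065, 0.111, 0.130 and 0.149 for cultures 1 to 5. Among the 20 differently numbered pairs it ran from -0.0858 to 0.0956, with a mean of -0.0255. These are correlations across genes, which are not independent replicates, and deviations from a mean of 5 sum to 0, which pushes differently numbered pairs below 0. The same-numbered mean exceeded the other by 0.126, the highest of the 120 possible numberings of the withdrawn libraries (one-sided exact permutation p = 0.00833, the smallest that 120 numberings can give).

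All 5 withdrawn libraries correlated best with the persister library of their own number. The reverse held for 4 of 5, because persister culture 1 correlated best with withdrawn culture 3. The size of what was held in common was small: for each log2 unit of deviation in the persister library, the withdrawn library of the same number deviated by 0.0191, 0.0292, 0.0752, 0.0777 and 0.0473 units in cultures 1 to 5.

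**Figure D2:**
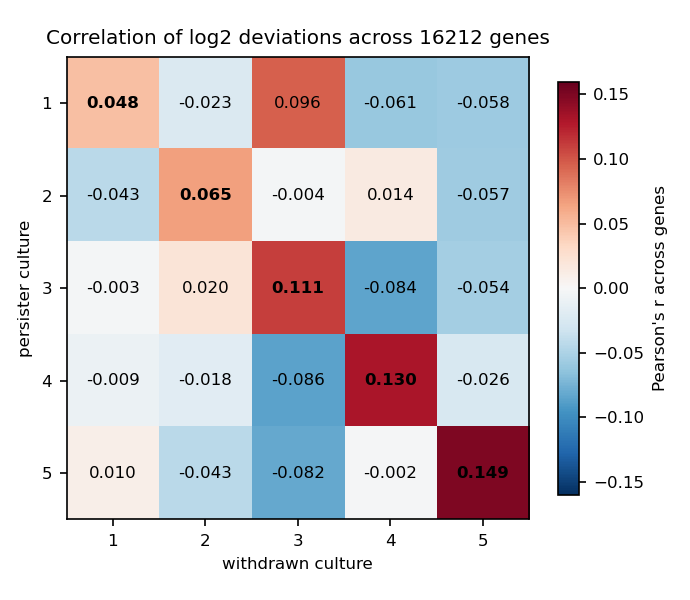
Pearson's r across 16212 genes between the log2 deviations of each persister culture (rows) and each withdrawn culture (columns), with same-numbered pairs in bold on the diagonal. Every column has its highest value, 0.048 to 0.149, on the diagonal.

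The culture with the highest level was the same in both states for 24.6% of genes, against 18.9% when differently numbered libraries were compared (one-sided exact permutation p = 0.0167 over 120 numberings). The lowest culture was the same for 24.5%, against 18.9% (one-sided exact permutation p = 0.0333). Without culture 5 both shares missed the threshold, with exact permutation p = 0.0833 for the highest and 0.208 for the lowest. Without culture 2 or culture 4, the exact permutation p for the lowest was 0.0833. Adjusted by Benjamini-Hochberg over these 3 tests, the exact permutation p was 0.025 for the correlation, 0.025 for the highest and 0.0333 for the lowest culture. In comparisons without 1 culture, the smallest possible exact p is 0.0417.

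Most large persister deviations were gone after withdrawal. Genes that stood at least 1 log2 unit above their state mean in a persister culture (1291 gene and culture combinations) lay on the same side in its withdrawn culture in 56.3% of cases, against 48.6% in withdrawn cultures of another number. The share differed between cultures, at 48.4%, 42.9%, 70.9%, 66.7% and 65.9% in cultures 1 to 5, and ran from 32.7% to 62.5% in differently numbered pairs, so the high genes of cultures 1 and 2 did not keep their side in most cases. For the 1587 that stood at least 1 unit below, the pooled shares were 59.0% and 46.8%. A deviation of at least 0.5 in the same direction remained for 8.29% of the high and 6.62% of the low ones, against 5.71% and 5.40% in differently numbered cultures. By pair of libraries, 117.6 genes on average deviated by at least 0.5 in the same direction in same-numbered libraries and 92.6 in differently numbered ones. The same-numbered counts were 50, 185, 102, 152 and 99 genes in cultures 1 to 5, fewest in culture 1 and most in culture 2. Genes that deviated by at least 0.5 in opposite directions numbered 63, 114, 61, 77 and 42, more than those in the same direction in culture 1 and fewer in the other 4 cultures.

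Gene by gene, 2 of 19631 genes tested (0.0102%) passed the edgeR quasi-likelihood F test of the culture effect, which asks for a difference between cultures that both states share. At an unadjusted p under 0.05 there were 515 genes, or 2.62%. With the same design, limma-voom called 0 genes and DESeq2 called 104. The contrast of withdrawn with persister cells, fitted without the culture, called 26.7% of the genes higher and 29.7% lower. Neither of the 2 genes had 10 counts in every library, so among the 16212 described here edgeR called 0, with 265 at an unadjusted p under 0.05. Whether a culture's difference depends on the state cannot be tested, since each culture has 1 library per state.

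LRFN5, a synaptic adhesion-like molecule with leucine-rich repeats (ENSG00000165379, GRCh38 chr14:41607570-41904549, plus strand, the gene whose promoter is printed above), was expressed in culture 5 and close to 0 in the others. In persister cultures 1 to 5 it stood at 0.292, 0.349, 0.0928, 0.388 and 20.3 CPM. After withdrawal it stood at 0.0587, 0.0523, 0.0147, 0.0141 and 1.54 CPM, from 4, 3, 1, 1 and 112 counts. Culture 5 was the highest in both states with no overlap, and the parental library had 2.29 CPM, above every withdrawn library. The fitted log2 difference of culture 5 from the other 4 was 6.07 ± 0.29 (SE, n = 2 libraries in culture 5), with an edgeR adjusted p of 0.00128 for that contrast and 0.0211 for the culture effect. The culture effect missed the threshold with limma-voom (adjusted p 0.0646) and in edgeR without culture 2, 3 or 4 (adjusted p 0.0592, 0.0770 and 0.0723). Without culture 5, LRFN5 did not pass the low-count filter. It thus entered the test only through the culture where it was high, and its call is not independent of that level.

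MYOCD, or myocardin, a coactivator of serum response factor that drives smooth muscle genes (ENSG00000141052, GRCh38 chr17:12665890-12768949, plus strand), had its highest level in culture 4. Persister cultures 1 to 5 held 5.87, 2.70, 73.8, 166 and 0.545 CPM. Withdrawn cultures held 1, 0, 1, 25 and 0 counts, and the parental library 1. Culture 4 was the highest in both states, but culture 3 was within a factor of 3 of it among persisters and at 1 count after withdrawal. The fitted log2 difference of culture 4 was 5.29 ± 0.31 (SE, n = 2 libraries in culture 4), edgeR adjusted p 0.00622 for the contrast and 0.0320 for the culture effect; with counts this low after withdrawal it depends on the prior count. The culture effect was lost with limma-voom (adjusted p 0.0551) and in edgeR without culture 1, 2, 4 or 5 (adjusted p 0.161, 0.238, 0.116 and 0.219). MYOCD shares exon bases with a gene on the opposite strand, and the strand setting of the counting is not stated.

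**Figure D3:**
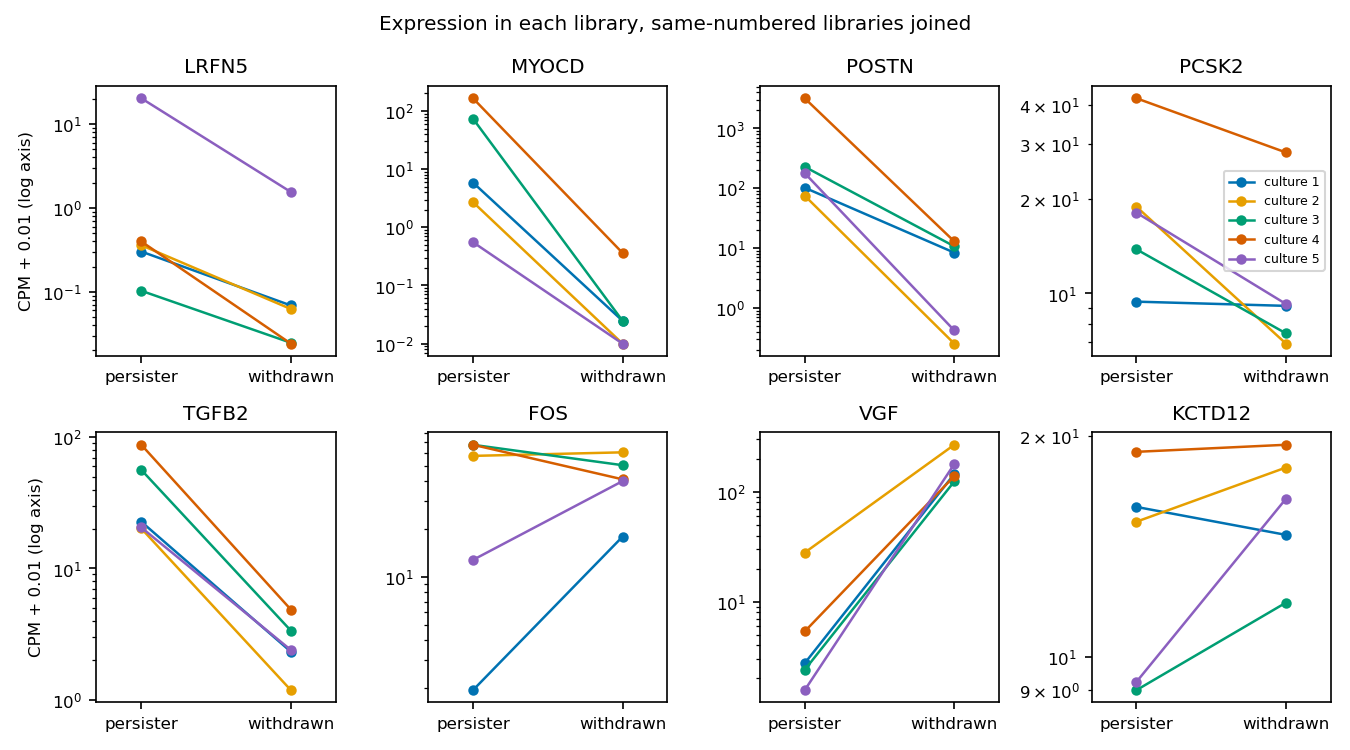
CPM plus 0.01 on a log axis for 8 genes in the persister and withdrawn library of each culture, with same-numbered libraries joined and cultures in 5 colours. LRFN5 is highest in culture 5 in both states, while POSTN, PCSK2 and TGFB2 are highest in culture 4.

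The test of 1 culture against the other 4 called LRFN5 higher in culture 5 and MYOCD higher in culture 4 (0.00509% of 19631 genes each) and 0 genes in either direction in cultures 1, 2 and 3. At an unadjusted p under 0.05 the edgeR contrasts had 566, 1187, 421, 597 and 1105 genes for cultures 1 to 5. DESeq2 called 17, 56, 21, 20 and 18, and limma-voom 0, 0, 0, 2 and 2. The protein-coding genes described next did not pass the edgeR test of the culture effect. They were chosen after their values were seen, mostly as those with the largest deviation held in common by both libraries of a culture, and their values are descriptions. Over all genes tested, DESeq2 called 0.530%. The genes examined by name were picked mostly for large deviations held in common, so nothing is read from their count. DESeq2 called 12 of the 50: LRFN5, MYOCD, CCBE1, FAT3, JUN, KCNK1, PCSK2, RPL10P3, SPINK6, TAGLN, TGFB2 and VGF. LRFN5, MYOCD, PCSK2, RPL10P3, SPINK6 and TGFB2 were also called by edgeR with no low-count filter.

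Genes that stood highest in culture 4 in both states included POSTN, PCSK2, TGFB2, DCT, FAT3 and FN1. POSTN encodes periostin, a secreted matrix protein (its CG-poor promoter is printed above), and stood at 102, 75.3, 229, 3196 and 179 CPM in persister cultures 1 to 5. After withdrawal it stood at 8.42, 0.244, 10.7, 12.96 and 0.412 CPM. Culture 4 led by more than 10-fold under the drug and by a small margin over culture 3 after it, while culture 2 was lowest in both states. The parental library held 0.0158 CPM. POSTN deviated by 3.67 and 2.27 log2 units in culture 4 (fitted difference 3.46 ± 0.83, SE, edgeR adjusted p 0.995). Withdrawn cultures 1 and 3 deviated by nearly as much as culture 4, at 1.65 and 2.00 units. Withdrawn cultures 2 and 5, with only 14 and 30 counts, lay at -3.30 and -2.61 and pulled the state mean down.

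PCSK2, a prohormone convertase, stood at 9.41, 18.9, 13.8, 41.9 and 18.1 CPM in persister and 9.12, 6.91, 7.45, 28.1 and 9.25 CPM in withdrawn cultures 1 to 5, against 1.99 CPM in the parental library. Culture 4 was apart from the others in both states. TGFB2, a ligand of the TGF-beta receptors, stood at 22.7, 20.2, 56.5, 87.8 and 20.5 CPM and then at 2.31, 1.17, 3.34, 4.85 and 2.38 CPM. Cultures 4 and 3 were the highest and culture 2 the lowest in both states, all withdrawn levels lying below all persister levels. The edgeR adjusted p of the culture effect was 0.848 for PCSK2 and 0.730 for TGFB2.

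The pigment enzyme DCT had 229, 359, 253, 739 and 540 CPM in persister and 47.4, 16.4, 22.5, 63.4 and 20.1 CPM in withdrawn cultures. Culture 4 was the highest in both, but the order of the other cultures changed. FAT3, a large atypical cadherin, was higher after withdrawal than before it and was again highest in culture 4, at 63.3 CPM against 16.1 to 30.2 in the other persister cultures and 105 against 45.6 to 61.5 in the other withdrawn cultures. FN1, or fibronectin, reached 760 CPM in persister culture 4 against 89.3 to 473 elsewhere, and 618 CPM in withdrawn culture 4 against 168 to 598 elsewhere. On the low side, the carboxypeptidase CPA4 was lowest in culture 4 in both states, at 243 CPM (others 253 to 1569) and 2.97 CPM (others 4.29 to 14.4). The guanine deaminase GDA was lowest there too, at 21.7 CPM (others 28.7 to 46.3) and 0.197 CPM (others 1.79 to 10.8).

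Of 4 genes of the smooth muscle programme, MYOCD and TAGLN were highest in culture 4 in both states. The set was made after values were seen, and MYOCD had already been called higher in culture 4. CNN1, chosen with TAGLN, MYL9 and ACTA2, is not among the 4 and is not described here. TAGLN, the actin-binding protein transgelin, stood at 2.84, 5.33, 3.99, 10.7 and 4.70 CPM in persister and 1.57, 1.97, 1.496, 4.61 and 1.98 CPM in withdrawn cultures 1 to 5, with an edgeR adjusted p of 0.702. MYL9, a myosin light chain, was instead highest in culture 3, at 306 CPM and 5.88 CPM, against 11.4 to 176 and 2.51 to 4.90 CPM in the other cultures. ACTA2, smooth muscle actin, was highest in culture 4 among persisters, at 61.4 CPM, and in culture 3 after withdrawal, at 7.38 CPM. TAGLN shares exon bases with PCSK7 on the opposite strand. TAGLN and ACTA2 are also among the 13 fibroblast markers, whose summed level is given above; its part in these values was not tested.

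Among the genes lowest in culture 1 in both states were FOS, FOSB and EGR1, immediate-early transcription factors that MAPK signalling induces within minutes. FOS stood at 1.94, 57.6, 67.6, 67.7 and 12.8 CPM in persister and 17.9, 60.7, 50.4, 41.1 and 40.02 CPM in withdrawn cultures 1 to 5, with 48.0 CPM in the parental library. Culture 1 was below all others in both states, and culture 5 was the next lowest in both. FOSB stood at 3.06 CPM in persister culture 1 (others 3.22 to 36.2) and 8.99 CPM in withdrawn culture 1 (others 10.9 to 20.7). EGR1 stood at 0.738 CPM (others 6.12 to 51.8) and then at 72.3 CPM (others 87.7 to 160).

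Of 6 such genes, FOS, FOSB, EGR1, JUN, DUSP1 and IER2, withdrawn culture 1 was the lowest for 6 and persister culture 1 for 4. The 6 were chosen after their values were seen, so these counts partly restate the choice. Over all 16212 genes described, culture 1 was the lowest for 2362 in withdrawn and 3028 in persister libraries. JUN, which was higher under the drug in all 5 cultures, stood at 74.4 CPM in persister culture 1, above culture 5 at 57.7, and at 7.09 CPM in withdrawn culture 1 (others 9.49 to 14.6). None of the 6 passed the edgeR test of the culture effect (adjusted p 0.848 each), and DESeq2 called JUN. The genes highest in culture 1 deviated little: HSBP1, a heat shock factor binding protein, stood at 282 CPM against 210 to 251 in persister libraries and 427 against 314 to 366 in withdrawn libraries. S100A3, a calcium-binding protein, stood at 19.9 CPM against 6.91 to 14.7 and at 8.91 against 6.06 to 8.58.

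Culture 2 was highest for the neuropeptide precursor VGF, the antioxidant enzyme GPX3 and the steroid dehydrogenase HSD17B11. VGF stood at 2.74, 27.9, 2.38, 5.34 and 1.55 CPM in persister and 145, 268, 124, 139 and 179 CPM in withdrawn cultures 1 to 5. Culture 2 stood apart in both states and the withdrawn level was above the persister level in all 5 cultures; the parental library held 152 CPM. GPX3 went the opposite way with withdrawal, from 347 CPM in persister culture 2 (others 53.6 to 311) to 5.60 CPM in withdrawn culture 2 (others 2.92 to 4.21). HSD17B11 stood at 14.2 CPM (others 6.62 to 11.3) and 47.1 CPM (others 29.1 to 38.5), and shares exon bases with a gene on its own strand. The transcription factor KLF5 stood at 24.0 CPM (others 7.54 to 20.1) and 42.9 CPM (others 23.7 to 36.8).

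Besides POSTN and TGFB2, culture 2 was lowest for VAV3, a guanine nucleotide exchange factor, and KCNK1, a potassium channel. VAV3 stood at 98.6 CPM against 140 to 227 in persister libraries and 1.33 against 3.14 to 4.46 in withdrawn libraries. KCNK1 stood at 27.9 CPM against 32.1 to 57.5 and at 0.803 against 1.38 to 2.87. PLCXD3, a phospholipase-like gene, stood at 3.11 CPM against 5.78 to 72.8 and at 4.05 against 5.60 to 10.8. The ribosomal pseudogene RPL10P3 stood at 2.81, 0.110, 4.78, 2.90 and 0.722 CPM in persister and 1.95, 0.174, 3.59, 3.45 and 1.21 CPM in withdrawn cultures 1 to 5. Cultures 2 and 5 were lowest in both states, but its reads can be shared with close copies of RPL10, so these values are uncertain (edgeR adjusted p 0.300).

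Culture 3 was highest for LRRC17 and LUM, both secreted leucine-rich repeat proteins, besides MYL9. LRRC17 stood at 126 CPM against 53.8 to 105 in persister libraries and 5.47 against 1.17 to 4.16 in withdrawn libraries. LUM, or lumican, stood at 297 CPM against 32.7 to 277 and at 5.50 against 2.34 to 4.46. Its low genes differed less: KCTD12, an auxiliary subunit of GABA-B receptors, stood at 8.99 CPM against 9.23 to 19.005 and then at 11.8 against 14.6 to 19.4. SORCS1, a sorting receptor, stood at 4.80 CPM against 4.87 to 14.0 and at 68.5 against 87.6 to 101.

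Culture 5 was highest for COL4A5, a basement membrane collagen chain, at 25.5 CPM against 15.2 to 20.9 in persister libraries and 11.0 against 7.47 to 8.20 in withdrawn libraries. ST8SIA4, a polysialyltransferase, stood at 38.0 CPM against 11.7 to 14.5 and at 28.8 against 17.9 to 26.2. TXNIP, an inhibitor of thioredoxin, stood at 207 CPM against 98.0 to 203 and at 368 against 252 to 340. Lowest in culture 5 was IGFBP5, an insulin-like growth factor binding protein, at 104 CPM against 176 to 231 and 10.9 against 14.0 to 29.2. CCBE1, which takes part in lymphatic vessel growth, stood at 16.7 CPM against 31.9 to 71.97 and at 3.72 against 4.23 to 10.8, and the kinase ALPK2 at 18.1 against 28.3 to 64.3 and 1.25 against 1.49 to 2.87.

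An all-or-none pattern, with 30 or more counts in both libraries of a culture and 3 or fewer in the other 8, or the reverse, was found for 1 gene in same-numbered pairs and for 0 in differently numbered pairs. The gene was the long non-coding RNA AC083967.1 (ENSG00000254337), with 315 counts in persister culture 5 and 60 in withdrawn culture 5. It had 1, 2, 1 and 1 counts in the other persister libraries and 0 in the other withdrawn libraries and the parental library. It was too low in most libraries to enter the edgeR test.

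None of the 26 gene lists examined held a called gene (background 0.0102%). The lists that set persister cultures apart most were those of dividing cells. The 35 mitosis genes had a mean deviation of -0.81, 1.12, 0.96, 0.88 and -2.15 log2 units in persister cultures 1 to 5, so that cultures 1 and 5 were low for 35 of 35 genes and cultures 2, 3 and 4 high for 35 of 35. After withdrawal the same means lay between -0.03 and 0.06. The 41 S phase genes ran from -1.35 to 0.84 among persisters and from -0.04 to 0.04 after withdrawal. MKI67, a proliferation marker, stood at 154, 705, 504, 517 and 45.3 CPM and then at 594, 550, 654, 677 and 654 CPM. In bulk RNA, fewer dividing cells and less RNA per cell cannot be told apart. The cultures low in these lists, 1 and 5, were also those with the highest mitochondrial share.

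The 39 interferon-stimulated genes ran from -0.64 in persister culture 4 to 0.57 in culture 5, and from -0.05 to 0.13 after withdrawal. The 25 MHC genes ran from -0.48 in culture 1 to 0.39 in culture 5, and from -0.05 to 0.02 after withdrawal. Of 26 lists, 25 covered a wider range over the persister than over the withdrawn cultures, the exception being hypoxia and glycolysis (0.120 and 0.214). The highest culture was the same in both states for 6 lists, the lowest for 11 and both for 3: heat shock (lowest in culture 5, highest in 2), fibroblast markers (lowest in 1, highest in 5) and RNA quality and intron retention (lowest in 2, highest in 5). The means of the 9 fibroblast markers described were -0.77, 0.13, 0.21, 0.04 and 0.39 in persister and -0.10, -0.08, 0.04, 0.03 and 0.11 in withdrawn cultures 1 to 5, and 8 of the 9 had a positive covariance between the states. The means of the 5 RNA quality genes were -0.24, -0.33, 0.28, -0.01 and 0.31, then -0.03, -0.20, -0.15, 0.05 and 0.33, and 4 of the 5 had a positive covariance. The part of other cell types and of RNA quality in the culture differences was not tested. MAPK pathway output, 30 genes downstream of MEK and ERK, had its lowest mean in culture 1 in both states, at -0.36 and -0.16, and the list includes FOS, FOSB, EGR1 and IER2. By the median gene the lowest persister cultures were instead 5 (-0.20) and 4 (-0.18), with culture 1 at -0.11. Extracellular matrix, 35 genes, was highest in culture 3 in both, at 0.23 and 0.18, and pigmentation, 13 genes, was lowest in culture 3 in both, at -0.37 and -0.17. Deviations of opposite or equal sign can be read against all 16212 genes, of which 60.3% had a positive covariance between the states over cultures. The share was 88.9% for heat shock, 82.9% for mitosis, 80.8% for cancer-testis antigens and 80.0% for MAPK pathway output. It was 76.9% for hypoxia and glycolysis, 72.9% for clustered protocadherins and 65.9% for S phase. Lower shares were 44.4% for replication-dependent histones, 41.7% for cholesterol synthesis, 14 of 70 genes for cytosolic ribosomal proteins and 15.4% for 13 mitochondrially encoded genes. The sign of a covariance does not give its size.

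**Figure D4:**
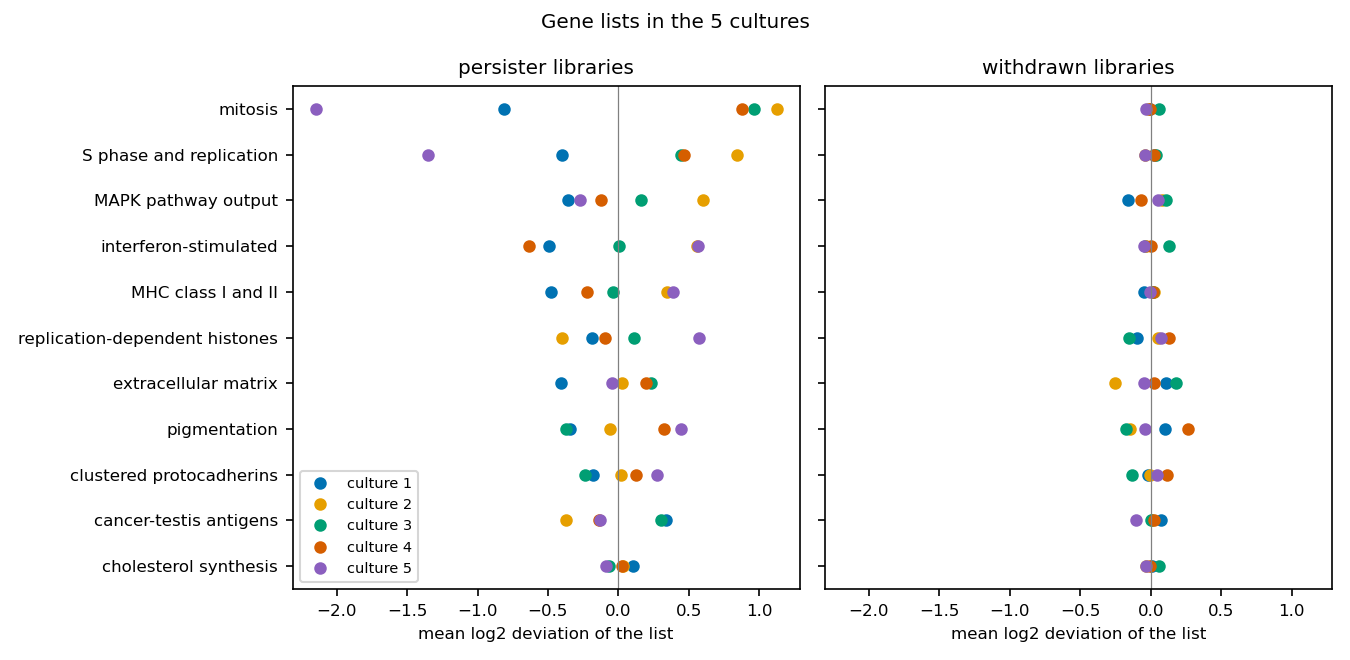
Mean log2 deviation (horizontal axis) of 11 gene lists (rows) in the 5 persister libraries (left) and the 5 withdrawn libraries (right), with cultures in 5 colours. The mitosis list spans -2.15 to 1.12 among persisters and -0.03 to 0.06 among withdrawn cultures.

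Clustered protocadherins are neighbouring cell adhesion genes, each cell using a few of their alternative promoters. The 48 members described had mean deviations of -0.18, 0.02, -0.24, 0.13 and 0.27 in persister and -0.02, -0.01, -0.13, 0.11 and 0.05 in withdrawn cultures 1 to 5, lowest in culture 3 in both states. The split into subclusters was made after their values were seen. Of 15 beta genes, 15 stood above the state mean in persister culture 5 and 14 in withdrawn culture 5, while 1 of 15 did so in culture 3 in both states. The mean of the beta genes was 0.85 and 0.07 in culture 5 and -0.29 and -0.22 in culture 3. In culture 4, 9 of 15 beta genes stood above the mean in the persister and 13 in the withdrawn library, with means of 0.05 and 0.13. Culture 5 was therefore not the highest by mean after withdrawal. The 18 gamma genes, which share constant exons so that reads may be split between them, averaged -0.23 and -0.14 in culture 3.

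The 14 genes of interest, which include melanoma state and MAPK genes, had the same highest culture in both states in 4 cases, MITF, DUSP6, POSTN and SPINK6. The case of SPINK6 rests on counts too low to order the withdrawn cultures. The share over all genes described was 24.6%, but SPINK6 and ROS1 are not among those genes. MITF, the master regulator of the melanocyte lineage, stood at 113, 89.4, 97.7, 119 and 93.3 CPM in persister and 152, 109, 124, 170 and 131 CPM in withdrawn cultures 1 to 5, highest in culture 4 and lowest in culture 2 both times (edgeR adjusted p 0.848). AXL, a receptor tyrosine kinase of the undifferentiated state, was highest in persister culture 2, at 506 CPM against 114 to 300, and in withdrawn culture 3, at 239 CPM against 143 to 178. The protease inhibitor gene SPINK6 had 104 CPM in persister culture 5 against 9.91 to 22.5 in the others and 0, 1, 0, 0 and 3 counts in withdrawn cultures 1 to 5, too few to order them.

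Whole chromosomes deviated in some persister cultures, and their medians lay nearer 0 in the withdrawn culture of the same number. The 817 genes of chromosome 7 had a median deviation of 0.255 in persister culture 1, with 79.2% above the state mean, against -0.0823 to -0.0268 in the other persisters. In withdrawn culture 1 the median was 0.00149. The 1639 genes of chromosome 1 had a median of -0.194 in persister culture 2 and -0.0287 in withdrawn culture 2. Withdrawn culture 2 was the lowest of its state for chromosome 1, and in that library the lower runs of 50 genes lay in the later stretch of the chromosome. From SRGAP2D to PGBD2, 14 of 14 runs had a median below 0 in withdrawn culture 2 (-0.0789 to -0.0188) and 13 of 14 in persister culture 2 (-0.411 to 0.0671). From WASH7P to FAM72C, 9 of 18 runs were below 0 in withdrawn culture 2 (-0.0330 to 0.0248) and 16 of 18 in persister culture 2 (-0.366 to 0.145). This division of the chromosome was made after the values were seen. The 590 genes of the X chromosome had a median of -0.274 in persister culture 2, against 0.0748 to 0.103 in the others, and 0.0206 in withdrawn culture 2. BRAF, on chromosome 7, stood at 54.7 CPM in persister culture 1 against 40.3 to 48.1 in the others, and at 57.4 to 59.7 in withdrawn cultures; it shares exon bases with NDUFB2 on the opposite strand. MED12, on the X chromosome, stood at 33.0 CPM in persister culture 2 against 45.0 to 55.7, and at 78.3 to 87.2 in withdrawn cultures. DNA copy number was not analysed here.

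**Figure D5:**
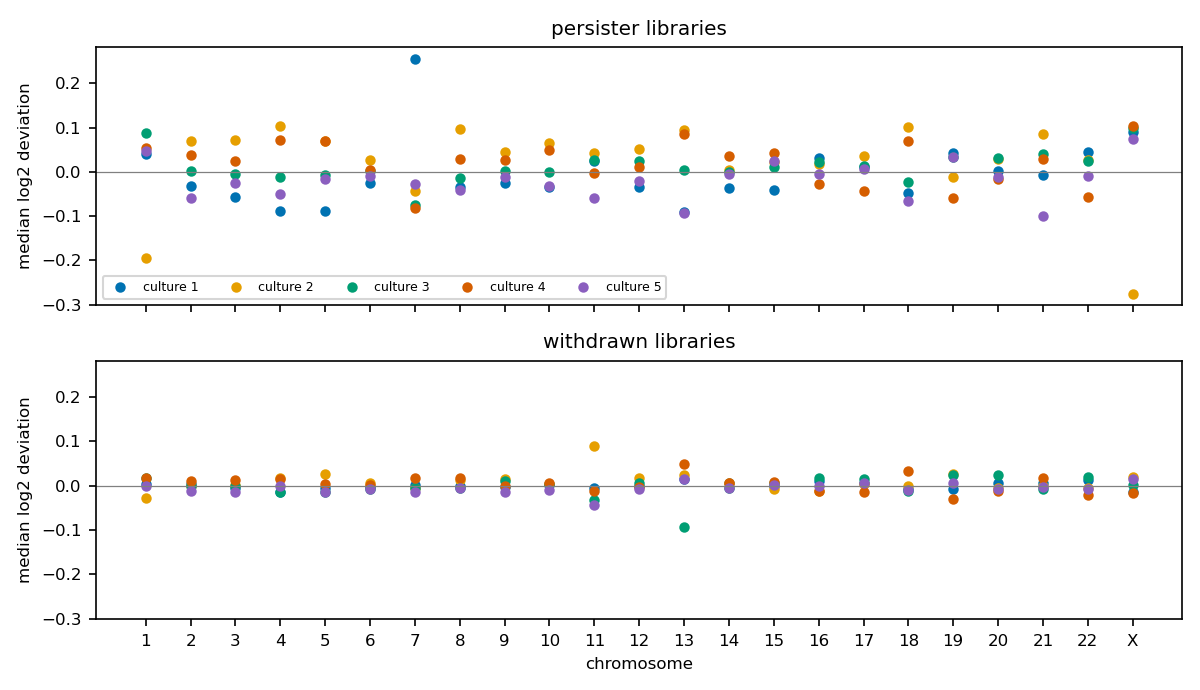
Median log2 deviation of the genes of each chromosome (horizontal axis) in persister (top) and withdrawn (bottom) libraries, with cultures in 5 colours. Chromosome 7 of culture 1 (0.255) and chromosomes 1 and X of culture 2 (-0.194 and -0.274) stand apart in the top panel and lie at 0.00149, -0.0287 and 0.0206 in the bottom panel.

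Chromosomes 11 and 13 stood apart in 1 withdrawn culture each. On chromosome 11, 844 genes had a median of 0.0904 in withdrawn culture 2, with 74.6% above the state mean. Culture 2 also had the highest median among persisters, 0.0431, but this was not particular to chromosome 11. Persister culture 2 was the highest on many chromosomes, with larger medians on chromosomes 4 (0.103), 8 (0.0967) and 18 (0.101). On chromosome 13, 320 genes had a median of -0.0939 in withdrawn culture 3, with 22.8% above the mean, and 0.00372 in persister culture 3.

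Among 312 runs of 50 neighbouring genes, no run had a median deviation of at least 0.2 in the same direction in both libraries of any pair, same-numbered or not. At a threshold of 0.1, chosen after seeing the data, 5 distinct runs did so in same-numbered pairs, 1 of them in both cultures 1 and 2, which makes 6 cases (1.2 per pair), against 13 cases in differently numbered pairs (0.65 per pair). Culture 2 supplied 4 of the 6, and without it there were 2 cases in 4 same-numbered pairs (0.5 per pair) and 7 in 12 others (0.583 per pair). A run on chromosome 19 from ATP13A1 to ZNF91 (GRCh38 chr19:19645198-23395560), 32 of whose 50 genes are ZNF genes coding for zinc finger proteins, had medians of -0.250, 0.257, 0.0943, 0.121 and -0.161 in persister cultures 1 to 5. In withdrawn cultures the medians were -0.108, 0.179, -0.0604, -0.0455 and 0.0837, so cultures 1 and 2 kept their sides and were the lowest and the highest. Culture 2 was also high on chromosome 4 from FAM47E to PKD2 (0.160 and 0.211) and in adjoining runs of chromosome 11 from NRIP3 to FBXO3 (0.189 and 0.154, then 0.180 and 0.150). Culture 3 was low in the run from PCDHA9 to FCHSD1 on chromosome 5 (-0.223 and -0.156), 43 of whose 50 genes are protocadherins.

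Withdrawn cultures also differed by genes that were high in all persisters. Of the 39 genes with an SD of at least 1 among withdrawn cultures, 27 were highest in culture 3, and 6 of these 27 were also highest in persister culture 3. Over all 16212 genes described, 3313 were highest in withdrawn culture 3, and 470 of these were also highest in persister culture 3. MME, the membrane peptidase neprilysin, stood at 2279, 3215, 768, 1887 and 3013 CPM in persister and 12.98, 1.19, 23.7, 6.59 and 4.78 CPM in withdrawn cultures 1 to 5. Culture 3 was thus the lowest persister and the highest withdrawn culture. SOX9, a transcription factor of the neural crest, stood at 112 to 161 CPM in persisters and at 2.36, 0.454, 5.10, 1.47 and 0.385 CPM after withdrawal. The growth factor NRG1 and the adhesion receptor TENM2 followed the same order at the top, with 12.2 CPM in withdrawn culture 3 against 1.195 to 5.20 for NRG1 and 17.3 against 1.38 to 5.49 for TENM2. Their parental levels were 0.174 CPM for MME, 0.142 for SOX9, 0.568 for NRG1 and 1.26 for TENM2.

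Withdrawn culture 3 was also often the highest among all genes with lower levels after withdrawal, which was not tested. The 520 genes counted below include 27 of the 39 genes with an SD of at least 1, so these counts overlap those above. For comparison, withdrawn culture 3 was the highest for 3313 of all 16212 genes described. Of 520 genes whose mean level was at least 4-fold lower in withdrawn than in persister cultures, 228 were highest in withdrawn culture 3 and 60 to 98 in each of the others, and their median deviation was 0.189 in withdrawn culture 3 and 0.0711 in persister culture 3. Of the 86 genes at least 16-fold lower, 56 were highest in withdrawn culture 3, with a median deviation of 0.604, against 0.0941 in persister culture 3. The 416 genes at least 4-fold higher after withdrawal had a median deviation of -0.0824 in withdrawn culture 3 and of 0.00643 to 0.0470 in the other withdrawn cultures. Withdrawn culture 3 also had the lowest mitochondrial share of its state, 3.15% against 3.61% to 3.70%, and the part of that in these values was not tested.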

How the data were processed

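The authors deposited whole-number read counts, 1 column per library, with no normalization. Per the labels' protocols, stranded poly(A) libraries were made from column-purified RNA. The submitters' processing notes list bcl2fastq, HISAT2 and HTSeq and the build hg38. Their versions, and the strand setting, are not stated in these sources. Of the 84 genes tabulated for naming, 28 overlap exons of a neighbour, and in 24 cases that neighbour is on the opposite strand.

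Gene symbols and coordinates came from GENCODE 29, and 45 IDs of Y-chromosome copies of shared X and Y genes had no match. The 5 persister and 5 withdrawn libraries, paired by the number in their labels, were fitted with edgeR 4.0.16 in R 4.3.3: filterByExpr by state, TMM scaling, and a robust quasi-likelihood fit of state and culture with 4 residual degrees of freedom. P-values were adjusted by Benjamini-Hochberg over 19631 genes (threshold 0.05). Deviations were taken in log2 CPM (prior count 2). The pairing rests on the numbers in the labels, and no check independent of the expression compared here was made. All 5 same-numbered correlations are above 0, 3 of them above 0.1, but they are the result itself and cannot check the pairing. limma 3.58.1 (voom) and DESeq2 1.42.0 were alternatives.

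The naming rule was, for each culture and direction, the 3 called protein-coding genes with the largest deviation held by both libraries, 14 genes of interest and all-or-none genes. It gave no called gene among those with 10 counts throughout, so the largest deviations were used without a call. The rule named up to 2 members of each list with a called member, and no list had one. The members, lists and tests were chosen with earlier results of these data known.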

Additional observations from a re-analysis of the deposited data

Results flagged for a closer look

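In 21 of 150 sets of 5 libraries of a state (100 for genes named, 46 for chromosome medians and 4 for library measures), 1 library stood farther from the rest than Dixon's 95% limit allows, where chance flags about 1 in 20. Most genes here were named for a large deviation of 1 culture, so their flags are not independent of that choice.

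LRFN5 stood apart in culture 5 in both states, at 20.3 CPM in the persister and 1.54 CPM in the withdrawn library. ST8SIA4 (38.0 CPM) and SPINK6 (104 CPM) stood apart in persister culture 5, and COL4A5 (11.0 CPM) in withdrawn culture 5. In culture 4, POSTN stood apart in the persister library at 3196 CPM, and MYOCD (0.352 CPM), PCSK2 (28.1 CPM), FAT3 (105 CPM) and TAGLN (4.61 CPM) in the withdrawn library. VGF (27.9 CPM) and DUSP6, a phosphatase induced by ERK (33.0 CPM), stood apart in persister culture 2. IER2 stood low in withdrawn culture 1 at 37.7 CPM. CPA4 (14.4 CPM) and TENM2 (17.3 CPM) stood high in withdrawn culture 3.

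Median log2 deviations stood apart for chromosome 7 in persister culture 1 (0.255), chromosomes 1 (-0.194) and X (-0.274) in persister culture 2, chromosome 13 in withdrawn culture 3 (-0.0939) and chromosome 18 in withdrawn culture 4 (0.0328). The mitochondrial share of withdrawn culture 3 was 3.15%.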

How the results depend on the processing

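The difference between same-numbered and differently numbered correlations kept its direction and its side of 0.05 under all 14 alternatives, from 0.115 to 0.161, among them Spearman's correlation, other prior counts, and an adjustment for transcript GC content and length that was added after seeing the data. The same-lowest share missed the threshold with at least 100 counts per library (24.9%, exact permutation p = 0.05) and with library size scaling only (23.5%, exact permutation p = 0.075). With 1 culture left out it ran from 27.2% to 31.2%, and the same-highest share from 28.7% to 30.6%. Fewer cultures make a shared extreme likelier by chance, so these shares cannot be set beside those of all cultures. The number of genes called for the culture effect, 2 here, was 41 with no low-count filter, 104 with DESeq2, and 0 with at least 10 counts in all libraries, with limma-voom, with a quality weight for each state and with cultures 2, 3 and 4 only. It was 0 to 1 with 1 culture left out: LRFN5 remained without culture 1 and MYOCD without culture 3. Calls for cultures 1 to 5 were 15, 11, 8, 14 and 15 with no filter and 17, 56, 21, 20 and 18 with DESeq2. Cultures 4 and 5 had 0 calls each with at least 10 counts throughout, 2 each with limma-voom and 2 each with quality weights, and culture 4 had 0 with cultures 2, 3 and 4 only. Leaving out 1 culture gave 0 to 1 calls for cultures 3 and 4 and 1 to 2 for culture 5. The cause of these differences was not tested. Withdrawn against persister, 11057 genes were called without and 10630 with the replicate block, 10316 of them shared, and 9408 to 10973 with 1 culture left out. Chromosome medians kept their direction or stayed within the spread under 4 added alternatives. With 2 libraries per culture and 4 residual degrees of freedom, precision per gene is limited, and differences under the counting noise of low genes were not detectable at this depth.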
